A study of Mus musculus with 6 samples.

Results

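The calpains are a family of calcium-dependent cysteine proteases that cut their substrates at a few sites, and calpastatin is their endogenous inhibitor. To determine how this system behaves in dystrophic muscle cells that received a Gpr18 agonist, 10 genes were followed: the catalytic family members Capn1, Capn2, Capn3, Capn5, Capn6, Capn7, Capn10 and Capn15, the small regulatory subunit Capns1, and the inhibitor Cast. They were found by symbol among the 47069 genes of the count table, and all 10 passed the filter on low counts that left 14165 genes. The set was chosen by what earlier results of the same comparison had shown, namely a lower Capn6 in treated cells, so the differences between groups given for these 10 genes are a description and not a test.

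The cells were primary myoblasts derived from muscle stem cells of mdx mice, which lack dystrophin and model Duchenne muscular dystrophy. The column names label every library of both groups as mdx, and the mutation itself was not checked. The stem cells had been sorted as negative for Sca-1, CD45, CD31 and CD11b and positive for integrins β1 and α7, and came from 3 different mdx mice. The paper describes serum-rich medium with FGF2 for myoblast culture and low-serum medium for differentiation. The medium of the sequenced cells is not stated separately. The mdx mice of the study were C57BL/10 males aged 10 weeks, and the donors of the cells are not described separately. One group received 10 μM PSB-KD107, a synthetic agonist of the receptor Gpr18, and the other received vehicle, with 3 libraries per group. The treatment lasted 16 h by the methods text and 2 days by the sample records.

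In skeletal muscle, calpain 1 and calpain 2 each pair with the small subunit encoded by Capns1 and cleave cytoskeletal and adhesion proteins during myoblast fusion, membrane repair and atrophy. Muscle that lacks dystrophin has a leaky membrane, and the calcium that enters is thought to activate calpains there. Capn3 encodes a muscle-specific calpain that binds titin and is mutated in a form of limb-girdle muscular dystrophy, whereas Capn6 encodes a member without protease activity that binds microtubules.

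The residue that sets Capn6 apart can be read from the gene sequence. In the coding sequences of GENCODE M21 on the build GRCm38, which corresponds to the mm10 build of the study, the codon aligned with the catalytic cysteine was TGC or TGT in the other 7 catalytic family members and AAG, a lysine codon, in Capn6. The windows below hold 33 coding bases, 5′ to 3′, with this codon in capitals, and show the active site in the main enzymes, in the muscle-specific member, in the most similar member without a calcium-binding tail, and in Capn6.
Capn1: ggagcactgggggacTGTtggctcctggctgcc
Capn2: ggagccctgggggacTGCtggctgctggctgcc
Capn3: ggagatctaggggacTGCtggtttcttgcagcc
Capn5: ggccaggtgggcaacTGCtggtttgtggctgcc
Capn6: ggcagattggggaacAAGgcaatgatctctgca
The codon was number 115 in Capn1, 105 in Capn2, 129 in Capn3, and 81 in both Capn5 and Capn6. The Capn6 window lies on chrX:143810884-143810916, on the minus strand and within 1 coding exon. Over the aligned residues, the encoded protein shared 61.5% identity with calpain 2 for Capn1, 51.7% for Capn3, 34.7% for Capn5 and 32.9% for Capn6, and between 24.4% and 30.4% for Capn7, Capn10 and Capn15.

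Before the comparison, the libraries were checked. Total counts ranged from 30917613 to 48756794, so that 3 counts correspond to between 0.0596 and 0.0962 CPM (counts relative to the TMM-scaled library total), a limit set by counting error alone. Libraries carry the numbers 1, 2 and 4 within a group, and no record states that equal numbers share a mouse. The cells held the myoblast markers Pax7, Myf5, Myod1, Des, Cdh15 and Itga7, which summed to between 5770 and 6340 CPM in every library. Des was the largest part of this sum, at 2780 to 3930 CPM. Pax7 had 26.8 to 68.8 CPM and Myf5 had 3.57 to 40.9 CPM. Genes of differentiating muscle were also high, with embryonic myosin Myh3 between 11800 and 18300 CPM, so the libraries were not of undifferentiated cells alone. Marker lists of fibroblasts, leukocytes, endothelium, glia, pericytes and adipocytes each summed to at most 13.7 CPM, and Adgre1, Lum and Plin1 had 0 counts in every library. PSB-KD107 library 4 stood apart, with 1.73 CPM of Dmd transcript against 16.2 to 20.0 CPM in the other 5 libraries, and 8.36 CPM of Ly6a, the gene of the sort marker Sca-1, against at most 1.29 CPM. Values without this library are therefore given beside the members and lists.

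Capn6 was the member that differed most between the groups. The vehicle libraries 1, 2 and 4 held 136, 131 and 115 CPM of Capn6, and the PSB-KD107 libraries held 32.7, 45.5 and 28.6 CPM. Every treated library was thus below every vehicle library, and the highest treated value was far under the lowest vehicle value. These levels rest on 3696 to 5318 counts in vehicle and 1041 to 1647 counts in treated cells. The mean was 127 ± 11.1 CPM (SD, n = 3) in vehicle and 35.6 ± 8.82 CPM (SD, n = 3) in PSB-KD107, or 28.0% of the vehicle level, a 3.57-fold lower value. The fitted log2 fold change was -1.84 with a standard error of 0.19, and it was -1.70 with a standard error of 0.18 without PSB-KD107 library 4. Between libraries of the same number, the log2 ratio was -2.05, -1.53 and -2.0. Only 34 of the 14165 tested genes (0.24%) had a lower log2 fold change. In bulk RNA, fewer cells expressing a gene and less of its RNA per cell cannot be told apart.

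**Figure D1:**
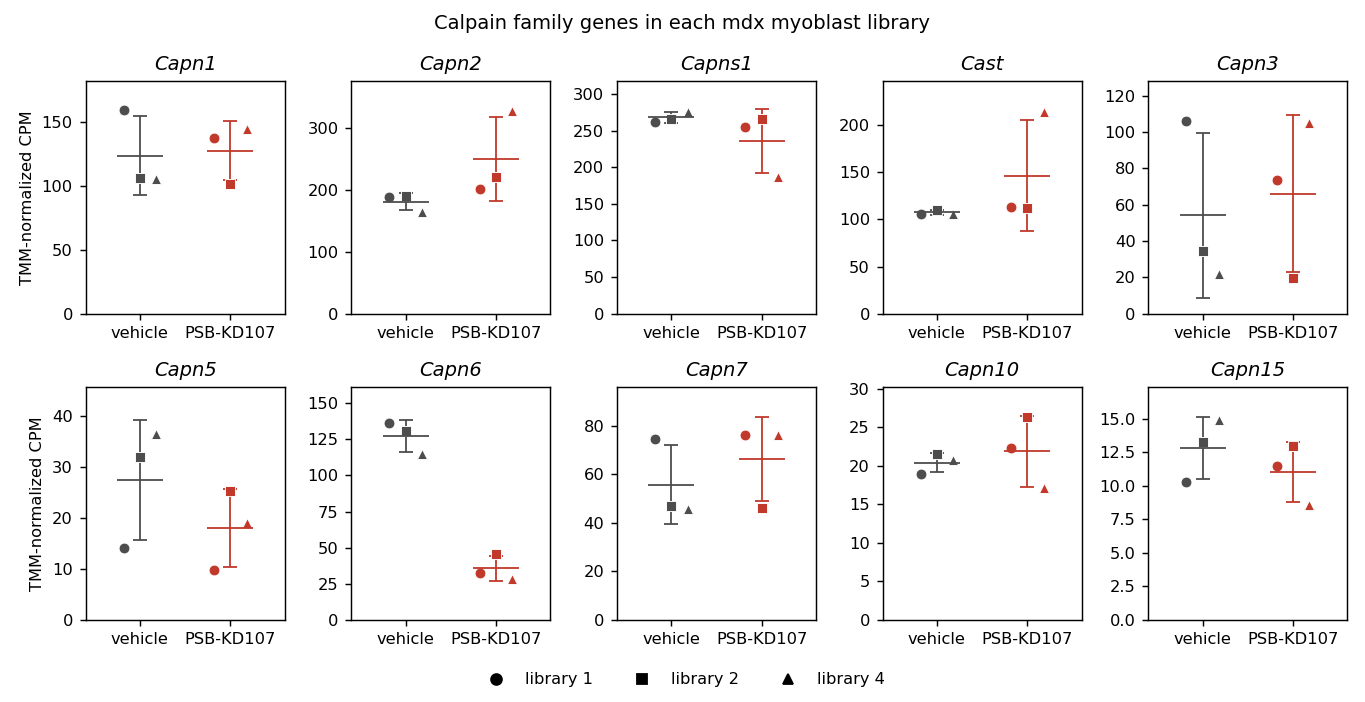
TMM-normalized CPM (vertical axes, each starting at 0) of the 10 genes in every library, with circles, squares and triangles for libraries 1, 2 and 4, horizontal bars for group means and whiskers for 1 SD over 3 libraries. Capn6 separates the groups with a wide gap, whereas the 3 treated libraries of Capn2 and Cast lie only just above the vehicle libraries except for library 4.

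The conventional calpains showed no such gap. Capn1, the catalytic chain of µ-calpain, had 159, 106 and 105 CPM in vehicle libraries 1, 2 and 4 and 137, 101 and 144 CPM in the PSB-KD107 libraries. These ranges overlapped, with vehicle library 1 the highest and PSB-KD107 library 2 the lowest. Capn1 had a log2 fold change of 0.04 with a standard error of 0.22, and of -0.05 with a standard error of 0.25 without PSB-KD107 library 4.

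Capn2, the catalytic chain of m-calpain (chr1:182467260-182517608, minus strand), had 188, 191 and 165 CPM in vehicle and 201, 221 and 328 CPM in PSB-KD107. The groups did not overlap, but library 4 of the treated group was far above the other two. Capn2 had a log2 fold change of 0.47 with a standard error of 0.20 over all libraries and 0.22 with a standard error of 0.11 without PSB-KD107 library 4.

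Capns1, whose product both of these enzymes need as a partner, had 262, 266 and 276 CPM in vehicle and 255, 266 and 186 CPM in PSB-KD107. The treated libraries 1 and 2 lay at the vehicle level and library 4 was the lowest. The log2 fold change was -0.19 with a standard error of 0.15, and -0.04 with a standard error of 0.09 without that library.

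The inhibitor Cast (chr13:74692368-74808810, minus strand) had 106, 110 and 106 CPM in vehicle and 113, 112 and 214 CPM in PSB-KD107. The groups did not overlap, by a small margin in libraries 1 and 2 and by a wide one in library 4. The log2 fold change was 0.45 with a standard error of 0.27, and 0.07 with a standard error of 0.08 without PSB-KD107 library 4. Erap1, an aminopeptidase gene on the opposite strand that shares 834 exonic bases with Cast, was also highest in that library, at 30.3 CPM against 8.47 to 12.3 CPM in the other 5. The strand setting of the counting is not given in the sources used here, and the part of Erap1 in the Cast value was not tested.

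Capn3 varied more between libraries than any other member. It lies on chr2:120456019-120504913 on the plus strand and had 106, 34.4 and 22 CPM in vehicle and 73.5, 19.5 and 105 CPM in PSB-KD107. Libraries 1 were high in both groups, libraries 2 were low in both, and libraries 4 differed from each other, so the groups overlapped fully. The ratio of the highest to the lowest library was 4.83 in vehicle and 5.37 in PSB-KD107, against 1.18 and 1.59 for Capn6. The log2 fold change of Capn3 was 0.28 with a standard error of 0.78 and turned to -0.22 with a standard error of 0.87 without PSB-KD107 library 4. Capn3 shares 386 exonic bases with Ganc, an alpha-glucosidase gene on the same strand that had between 9.20 and 14.4 CPM.

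Capn5, a calpain without the calcium-binding tail of the conventional enzymes, had 14.1, 32.0 and 36.4 CPM in vehicle and 9.86, 25.2 and 19.0 CPM in PSB-KD107. The treated library was lower at each of the 3 numbers, but libraries 1 were low in both groups and the ranges overlapped. Capn5 had a log2 fold change of -0.61 with a standard error of 0.46, and of -0.65 with a standard error of 0.58 without PSB-KD107 library 4.

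The remaining members are widely expressed calpains. Capn7, whose product binds ESCRT proteins, had 74.5, 47.1 and 45.6 CPM in vehicle and 76.3, 46.3 and 76.1 CPM in PSB-KD107. The groups overlapped, and libraries 1 and 2 differed little between vehicle and treatment. For Capn7 the fitted difference was 0.25 on the log2 scale with a standard error of 0.28, and 0.14 with a standard error of 0.32 without PSB-KD107 library 4. Sh3bp5, a signalling adaptor gene that shares 116 exonic bases with Capn7 on the opposite strand, had 11.4 to 34.2 CPM in vehicle and 24.7 to 55.2 CPM in PSB-KD107, and its part in the Capn7 value was not tested. The other tested genes that overlap a member, Gm37885 in Capn2, Gm10814 in Capn1, Gm26810 in Capns1 and Omp in Capn5, had at most 0.495 CPM in any library.

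Capn10, a gene linked to type 2 diabetes in human genetics, had 19.0, 21.5 and 20.8 CPM in vehicle and 22.3, 26.3 and 17.1 CPM in PSB-KD107. Capn15, the relative of the fly gene small optic lobes, had 10.3, 13.3 and 14.9 CPM in vehicle and 11.5, 13.0 and 8.56 CPM in PSB-KD107. Both genes overlapped between the groups and were lowest in PSB-KD107 library 4. Their log2 fold changes were 0.10 with a standard error of 0.18 for Capn10 and -0.22 with a standard error of 0.23 for Capn15. Without that library they were 0.25 with a standard error of 0.13 and -0.07 with a standard error of 0.20.

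**Figure D2:**
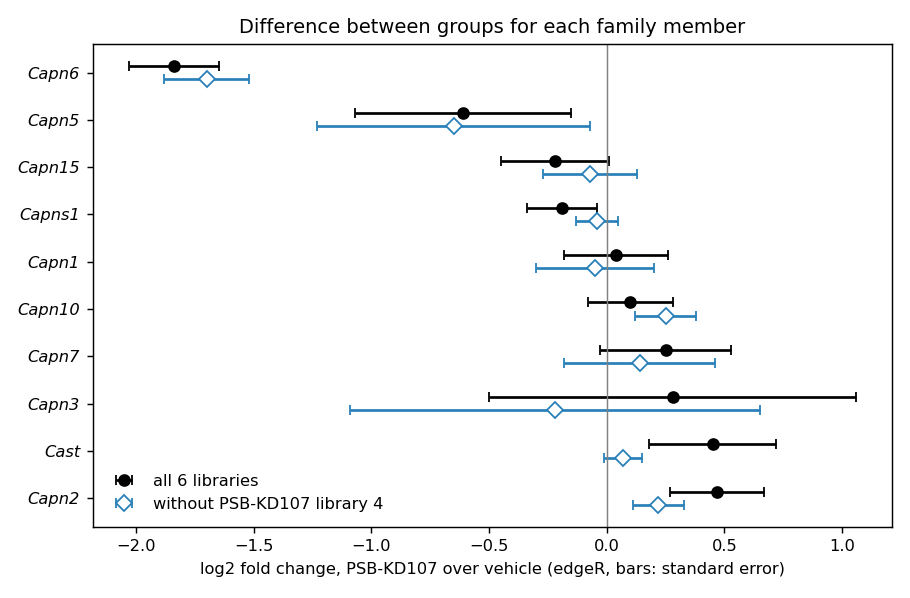
Log2 fold change of PSB-KD107 over vehicle (horizontal axis, bars of 1 standard error from edgeR) for the 10 genes, with filled circles for all 6 libraries and open diamonds without PSB-KD107 library 4. Capn6 lies at -1.84 and -1.70, whereas the values of Capn2 and Cast move from 0.47 and 0.45 to 0.22 and 0.07 without that library.

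Of the 10 genes, 6 were higher and 4 were lower in treated cells, with a median log2 fold change of 0.07 against 0 over all 14165 genes. Without PSB-KD107 library 4, the counts were 4 higher and 6 lower and the median was -0.05. The log2 fold changes of the 9 genes other than Capn6 had a median of 0.10 and an SD of 0.35, and Capn6 lay 1.94 below that median on the log2 scale. The groups did not overlap for 3 of the 10 genes (Capn2, Capn6 and Cast), whereas this was the case for 15.8% of all tested genes. By edgeR's quasi-likelihood test, 0 of the 10 members were called at an adjusted p-value under 0.05, as were 0 (0%) of all tested genes. Without adjustment, 1 member (Capn6) was lower at a p-value under 0.05 and 0 were higher, while 2.93% of all tested genes (415) were lower and 6.47% (916) were higher at that level. DESeq2 called 1 member, Capn6, and 3.40% of all genes (482). Since Capn6 was chosen from this comparison, nothing is read from these counts.

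To compare the members with each other, CPM was divided by the length of the merged exons. On this scale the order of the vehicle levels was Capns1 at 108 ± 2.97 CPM per kb (SD, n = 3), Capn1 at 36.9 ± 9.21, Capn2 at 28.6 ± 2.26, Capn6 at 16.3 ± 1.42, Capn7 at 11.4 ± 3.32, Capn3 at 10.8 ± 9.05, Cast at 9.35 ± 0.227, Capn5 at 5.01 ± 2.15, Capn10 at 4.70 ± 0.295 and Capn15 at 2.24 ± 0.409. Capn1 and Capn2 were within their spread of each other, as were Capn7, Capn3 and Cast, and Capn5 and Capn10. With the length of the transcript that has the longest coding sequence, a choice made after seeing the data, Capn2 (56.2 ± 4.44 CPM per kb) came above Capn1 (40.4 ± 10.1) and Capn6 (35.7 ± 3.12), and Cast (20.9 ± 0.507) above Capn3 and Capn7. Capn6 was then within its spread of Capn1, and Cast within that of Capn3. The vehicle mean of Capn6 came below those of Capns1, Capn1 and Capn2 with either length. On merged exons it was within the spread of Capn3, which was above Capn6 in vehicle library 1 (21.1 against 17.4 CPM per kb).

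In PSB-KD107 cells the level of Capn6 was 4.57 ± 1.13 CPM per kb (SD, n = 3), close to that of Capn10 at 5.04 ± 1.06. Its share was taken of the level per kb of merged exons summed over all members but Capns1 and Cast, Capn6 included. This share was 12.5%, 15.5% and 14.7% in vehicle libraries 1, 2 and 4 and 3.62%, 6.01% and 2.56% in the PSB-KD107 libraries. The means were 14.2% ± 1.55 and 4.06% ± 1.77 (SD, n = 3). The summed level itself was 116 ± 21.2 CPM per kb in vehicle and 119 ± 23.6 in PSB-KD107, a difference smaller than the spread between libraries.

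The balance of the conventional enzymes and their inhibitor also stayed within the spread. The level of Capn1 plus Capn2 over that of Cast was 8.38, 6.44 and 6.21 in vehicle libraries 1, 2 and 4 and 7.36, 6.67 and 5.08 in the PSB-KD107 libraries, with means of 7.01 ± 1.19 and 6.37 ± 1.17 (SD, n = 3). The groups overlapped, and PSB-KD107 library 4 had the lowest ratio. The level of Capns1 over that of Capn1 plus Capn2 was 1.68 ± 0.289 in vehicle and 1.29 ± 0.445 in PSB-KD107 (SD, n = 3), where treated library 4 alone was at 0.791 and the other 5 libraries were between 1.37 and 1.94.

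The rest of the family was scarcely detected. Capn8, Capn13 and Capns2 had 0 counts in every library, which allows up to 0.0962 CPM in the shallowest one, and Adgb had 1 count in 1 library. Capn9 had 4 to 14 counts and Capn12 had 1 to 7 counts per library. Capn11, with 13 to 20 counts, was the only one of these 7 genes that passed the filter, and its log2 fold change was -0.03 with a standard error of 0.30.

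Genes around the calpains were then examined in lists written from general knowledge. The lists were drawn up with earlier results of these data known, so their counts and p-values are a description. The list of calpain substrates held 24 genes of the cytoskeleton and adhesion sites, all tested. In treated cells 15 of them were higher and 9 lower, and their median log2 fold change was 0.09. Ezr, which links actin to the membrane, had 25.9, 22.4 and 18.4 CPM in vehicle and 49.2, 32.0 and 46.0 CPM in PSB-KD107. Every treated library was above every vehicle library, while the groups did not overlap, in either direction, for 15.8% of all tested genes. The adaptor Ank2 was likewise separated, with 28.6 to 31.8 CPM in vehicle and 37.3 to 65.9 CPM in PSB-KD107. Their log2 fold changes were 0.93 for Ezr and 0.82 for Ank2, with standard errors of 0.21 and 0.22, and the adjusted p-values by edgeR's quasi-likelihood test were 0.261 and 0.326. At an unadjusted p-value under 0.05, 3 substrates, Ezr and Ank2 among them, were higher and 1 was lower (Pxn, a focal adhesion adaptor, with a log2 fold change of -0.39), against 6.47% and 2.93% of all tested genes, and 0 passed after adjustment with edgeR. DESeq2 called the same 3 higher genes, against 3.40% of all tested genes.

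Without PSB-KD107 library 4, 12 substrates lay above and 12 below their vehicle level. At an unadjusted p-value under 0.05, 3 of them were higher and 0 lower, against 6.92% and 3.65% of the genes tested on these 5 libraries. The median log2 fold change of the list was then 0.01. Transcript levels do not measure cleavage.

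The membrane repair list held 14 genes. Of these 10 were higher and 4 lower, and the median of their log2 fold changes was 0.08. Anxa1, an annexin recruited to wounded membrane by calcium, had 191, 160 and 147 CPM in vehicle and 233, 228 and 259 CPM in PSB-KD107. All treated libraries were above all vehicle libraries, while the groups did not overlap, in either direction, for 15.8% of all tested genes. The log2 fold change of Anxa1 was 0.53 with a standard error of 0.13 and an adjusted p-value of 0.284 by edgeR's quasi-likelihood test. Anxa5, another annexin, had a log2 fold change of 0.55 with a standard error of 0.31 and overlapped between the groups. Anxa1 was the 1 gene of this list at an unadjusted p-value under 0.05, where 6.47% of all tested genes were higher and 2.93% lower. It was again the 1 such gene without PSB-KD107 library 4, against 6.92% and 3.65%. It was also the 1 gene that DESeq2 called, against 3.40% of all tested genes.

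Capn6 protein is known to bind and stabilize microtubules. A list of 9 tubulin, microtubule-binding and other cytoskeletal genes had 6 higher and 3 lower genes and a median of 0.07 on the log2 scale, which became 4 higher, 5 lower and -0.04 without PSB-KD107 library 4. None of the 9 had an unadjusted p-value under 0.05 in either case. Map4, a microtubule-binding protein, had 537 to 595 CPM in vehicle and 628 to 721 CPM in PSB-KD107, and its log2 fold change was 0.24 with a standard error of 0.11. Cdc42, a regulator of cell polarity, had 454 to 474 CPM in vehicle and 484 to 571 CPM in PSB-KD107, and its log2 fold change was 0.18 with a standard error of 0.10. The groups did not overlap for either gene, as for 15.8% of all tested genes in either direction. Neither gene passed the test, with adjusted p-values of 0.585 and 0.660 by edgeR's quasi-likelihood test.

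The caspase list held 13 genes of the other large family of cytosolic cysteine proteases and its inhibitors, of which 12 were tested. Among them 7 were higher and 5 lower, and their median was 0.10 on the log2 scale. Casp4, an inflammatory caspase, had 2.04, 1.35 and 1.40 CPM in vehicle and 8.13, 3.79 and 5.34 CPM in PSB-KD107, above vehicle in every treated library. Its log2 fold change was 1.85 with a standard error of 0.37 and an adjusted p-value of 0.230 by edgeR's quasi-likelihood test. Casp2, an initiator caspase, had 11.1 to 13.2 CPM in vehicle and 7.95 to 9.16 CPM in PSB-KD107, with a log2 fold change of -0.49 and a standard error of 0.15. The groups did not overlap for Casp4 and Casp2, as for 15.8% of all tested genes in either direction. DESeq2 called these 2 genes, against 3.40% of all tested genes. Without PSB-KD107 library 4, the list held 5 higher and 7 lower genes and its median was -0.07.

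Capn6 was lower together with several genes of muscle differentiation. The list of 15 differentiation genes had 4 higher and 11 lower genes and a median of -0.25 on the log2 scale. At an unadjusted p-value under 0.05, 5 of the 15 were lower and 0 higher, against 2.93% and 6.47% of all tested genes, while 0 passed after adjustment with edgeR. Mymx, the fusion peptide myomixer, had 278, 222 and 204 CPM in vehicle and 165, 158 and 111 CPM in PSB-KD107. Actc1, cardiac actin, had 6390, 5170 and 5800 CPM in vehicle and 3330, 3580 and 4540 CPM in PSB-KD107. Every treated library was below every vehicle library for both genes, and also for Mymk, Myog, Myh3 and, by a very small margin, Mylpf. The groups did not overlap, in either direction, for 15.8% of all tested genes.

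Fitted log2 fold changes were -0.70 for Mymx, -0.60 for Actc1, -0.37 for the fusion protein gene Mymk, -0.49 for the transcription factor gene Myog and -0.44 for Myh3, with standard errors between 0.11 and 0.20. The adjusted p-values by edgeR's quasi-likelihood test were 0.361 for Mymx, 0.394 for Actc1 and 0.399 for Mymk, and DESeq2 called 4 genes of the list (Mymx, Actc1, Mymk and Myh3), against 3.40% of all tested genes. Cdkn1c, a cell cycle inhibitor gene of the same list named after its values were seen, ranged from 232 to 3890 CPM in vehicle and from 72.2 to 1090 CPM in PSB-KD107, and its log2 fold change was -2.40 with a standard error of 1.40. Without PSB-KD107 library 4, all 15 genes were lower and the median was -0.37. Mymx, Actc1, Mymk, Myog and Myh3 again had an unadjusted p-value under 0.05 by edgeR's quasi-likelihood test. Of all genes tested without that library, 3.65% were lower at this level. Pax7, the stem cell transcription factor, was also lower, with 49.9 to 68.8 CPM in vehicle and 26.8 to 35.1 CPM in PSB-KD107, a log2 fold change of -0.90 with a standard error of 0.17 and an adjusted p-value of 0.209 by edgeR's quasi-likelihood test. Of the 6 myoblast markers, 2 were higher and 4 lower. Apart from Pax7, the groups overlapped for each, with Myf5 and Des higher and Myod1, Cdh15 and Itga7 lower. Among all tested genes, the groups did not overlap, in either direction, for 15.8%. The part of the state of differentiation in the Capn6 value was not tested.

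**Figure D3:**
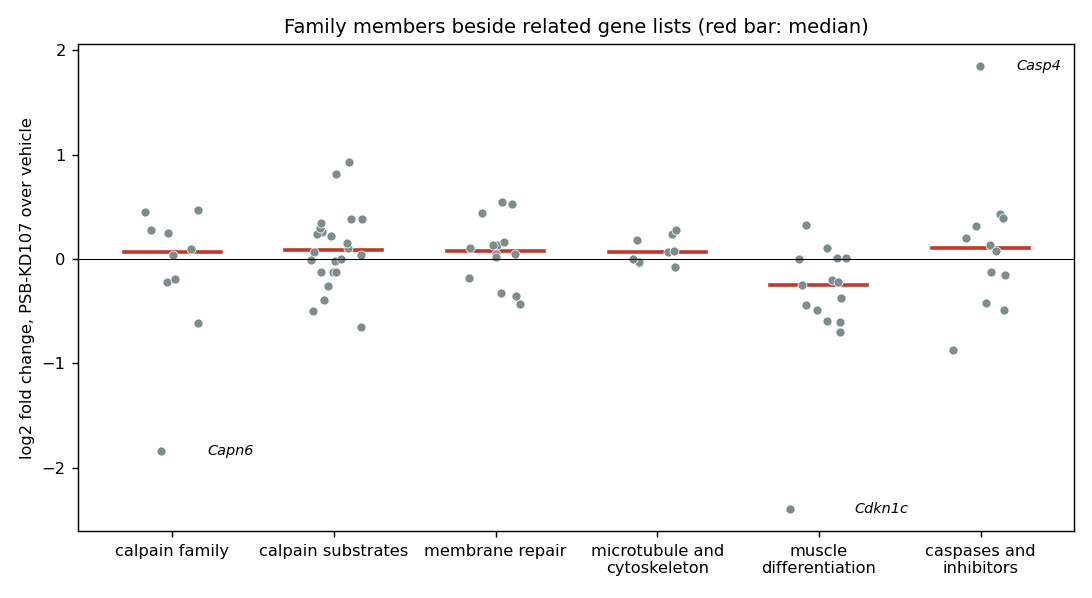
Log2 fold change of PSB-KD107 over vehicle (vertical axis) for the tested genes of the calpain family and of 5 related lists, leaving out 1 substrate gene that is not reported here, with a red bar for the median over all tested genes of each list and names for plotted genes beyond 1 in either direction. The list medians lie between -0.25 and 0.10, and Capn6 at -1.84 stands away from the rest of its family.

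Capn6 lies on chrX:143802231-143827414 (GRCm38, minus strand), and 6 of the 11 protein-coding genes within 1 Mb of it were tested. Pak3, a kinase gene whose nearest edge is 4.43 kb away, had 18, 20.0 and 17.3 CPM in vehicle and 10.4, 17.0 and 12.7 CPM in PSB-KD107. The treated libraries were all below the vehicle libraries, narrowly so for library 2. Such a lack of overlap, in either direction, was seen for 15.8% of all tested genes. Pak3 had a log2 fold change of -0.47 with a standard error of 0.21 and an adjusted p-value of 0.584 by edgeR's quasi-likelihood test.

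Dcx, the gene of the microtubule-binding protein doublecortin at 28.4 kb, had 7.93, 3.29 and 1.46 CPM in vehicle and 2.03, 0.738 and 2.78 CPM in PSB-KD107. It was lower in treated libraries 1 and 2 and higher in library 4, and its log2 fold change was -1.19 with a standard error of 0.74. Chrdl1, a BMP antagonist gene at 408 kb, was at most 2.21 CPM in any library and had a log2 fold change of -1.33 with a standard error of 0.99. Alg13, Ammecr1 and Tmem164 had log2 fold changes of 0, -0.21 and 0.07.

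**Figure D4:**
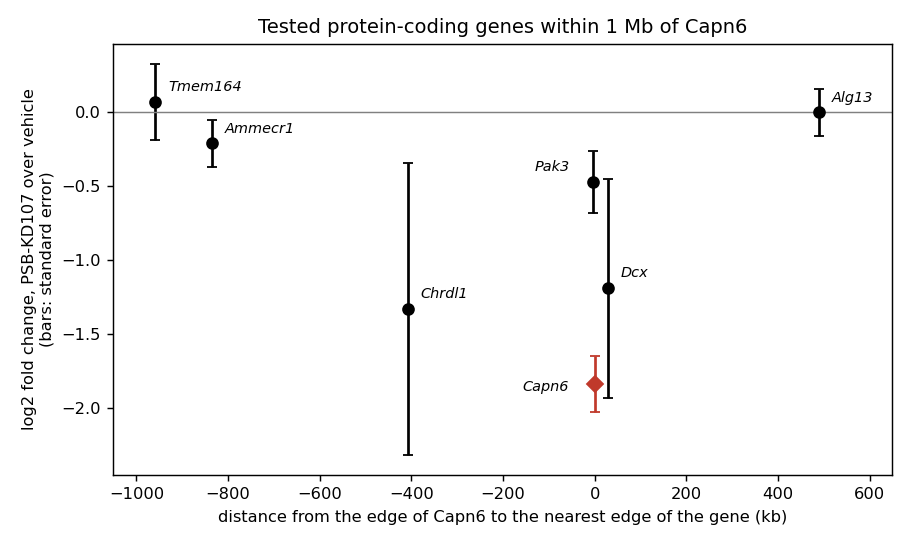
Log2 fold change of PSB-KD107 over vehicle (vertical axis, bars of 1 standard error from edgeR) against the distance in kb from Capn6 for the 6 tested protein-coding neighbours (black circles), with Capn6 at 0 (red diamond). Capn6 at -1.84 is lower than each neighbour, and the bars of Dcx and Chrdl1 are the widest.

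The promoter window of Capn6 is shown because its transcript was the one that differed. It spans chrX:143827363-143827662 on the minus strand (RefSeq, GRCm38.p6), from 250 bases before to 50 bases after the annotated start, and is written 5′ to 3′ with E-boxes in capitals, the letters CANNTG that myogenic factors such as Myod1 can bind.
Capn6: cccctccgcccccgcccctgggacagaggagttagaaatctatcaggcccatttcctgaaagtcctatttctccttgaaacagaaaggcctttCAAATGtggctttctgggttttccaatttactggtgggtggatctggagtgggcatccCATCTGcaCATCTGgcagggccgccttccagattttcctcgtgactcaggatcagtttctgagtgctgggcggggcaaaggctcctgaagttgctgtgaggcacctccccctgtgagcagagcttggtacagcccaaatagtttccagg
It holds 3 E-boxes, as 3 or more do in 17.6% of the 32851 windows of this length and at least 1 does in 72.3%. The reverse complement of CANNTG is again CANNTG, so a search of 1 strand covers both. The window has 5 CpG, where the 16 windows of the members ranged from 2 to 27 and the median over all windows was 7. Windows were present for 9 of the 10 members, all but Capn5. A match to these letters is a description of the sequence and not a binding site.

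The 6 genes whose log2 levels followed Capn6 most closely over the 6 libraries were Asf1b, Srpk3, Apobec2, Psmc3ip, Fgfrl1 and Fam193b, with Pearson's r between 0.987 and 0.995. As the libraries fall into both treatment groups, these values mainly restate a lower level in treated cells, and they are given with no test. Srpk3, a kinase gene expressed in muscle, had 127, 119 and 116 CPM in vehicle and 76.9, 84.6 and 69.5 CPM in PSB-KD107. The log2 fold changes of the 6 genes lay between -0.71 and -0.25, each smaller in size than that of Capn6.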

How the data were processed

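RNA-seq was performed on 6 libraries of mdx myoblasts, 3 per group. The authors aligned paired-end reads to mm10 with STAR and deposited raw counts per gene, with no normalization. The counting program, annotation and strand setting are not given in the sources used here. Groups were taken from the sample records and column names. The libraries numbered 4 belong to a group but to no single record. The 10 members and all gene lists were chosen with earlier results of these data known.

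The packages edgeR 4.0.16, DESeq2 1.42.0 and limma 3.58.1 were used under R 4.3.3, and proteins were aligned with MAFFT 7.526. Genes were filtered with filterByExpr (14165 of 47069), scaled with TMM factors and compared by edgeR's quasi-likelihood test with Benjamini-Hochberg adjustment at 0.05. P-values set the difference between groups against the spread between these libraries, with no pairing. Names, lengths and coordinates came from GENCODE M21, with an entry for 46488 genes (99.96% of the counts). Merged exons gave the lengths. Coding windows were read from that release, and promoter windows from RefSeq (GRCm38.p6). Errors are SDs over 3 libraries.

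The genes named were all members and other calpains with counts, the genes of each list with the smallest p-values (3 for substrates and differentiation and 2 for the rest), tested neighbours of Capn6, the 6 genes closest to Capn6, and genes overlapping a member. A gene covered by this rule is not reported here. Myog, Myh3, Mylpf, Pax7, Dmd and Ly6a were named after their values were seen. Alternatives were RLE factors, no filter, a minimum group mean of 1 FPKM, DESeq2, limma-voom, a replicate block, and each library left out. Transcript lengths and the list counts without PSB-KD107 library 4 were added after seeing the data. The fits were tested on simulated data in which all libraries were independent. Those data had no deviations shared between libraries of the same number, so they do not bear on the pairing.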

Additional observations from a re-analysis of the deposited data

How the results depend on the processing

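The lower level of Capn6 kept its direction in all 15 alternatives, with a log2 fold change between -2.06 and -1.70 (-2.06 to -1.70 with 1 library left out), as did the direction of Capn2, Capn5, Capns1 and Cast. The sign of Capn1, Capn3, Capn7, Capn10 and Capn15 held in 9, 11, 14, 14 and 13 of them. The number of genes called by edgeR was 0, with 0 members, in all but the following settings. Without a filter on low counts it was 8 of 24186 genes and 1 member (Capn6), and a block on 4 libraries is given below. DESeq2 called 482 of 14165 genes and 1 member. Leaving out 1 library gave 0 genes and 0 members in each case. With 1 library left out, the distance of Capn6 from the median of the other members was between -2.24 and -1.66, the median of the substrate list was between 0.01 and 0.10, and the ratio of Capn1 plus Capn2 to Cast was between 6.33 and 7.41 in vehicle and between 5.88 and 7.02 in PSB-KD107. With the length of the longest coding transcript, this ratio was 4.63 in vehicle and 4.37 in PSB-KD107. That choice shortens Cast by a larger factor than Capn2 or Capn1, which lowers the ratio.

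The numbers of the libraries were tested as a pairing. The deviations from the group means (log2 of CPM with an offset of 0.5) gave a correlation over genes (not replicates) of 0.63 for number 1, 0.57 for number 2 and -0.13 for number 4. Libraries 1 and 2 thus deviated together and libraries 4 did not, and since no source ties a number to a mouse, the block was not part of the test. With a replicate block on the 4 libraries numbered 1 and 2, edgeR called 2456 of 14400 genes. Among them were 3 members, Capn3, Capn5 and Capn6, with log2 fold changes of -0.66, -0.43 and -1.79. For Capn3 the value over all 6 libraries without a block was 0.28. On the 4 libraries without the block, 0 genes and 0 members were called. With the replicate block on all 6 libraries edgeR called 0 genes, and DESeq2 called 633 of 14165 genes and 1 member. The cause of these differences was not tested. Depth did not limit the members, which had at least 311 counts in every library, but it did limit the other calpains.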
